A study of Mus musculus with 6 samples.

Results

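The endoplasmic reticulum (ER) folds, glycosylates and inspects the proteins that enter the secretory pathway, and 31 mouse genes for this work are described here: ER chaperones, their J-protein partners, protein disulfide isomerases, components of ER-associated degradation, 2 translocation genes, the sensors of the unfolded protein response (UPR) and the phosphatase subunits that reverse one of its signals. The genes were chosen by name for their known roles, not by a threshold on measured values, though earlier results of these data were known when the list was made. They were divided by the UPR arm they are usually placed under: 14 on the ATF6 side, 14 on the XBP1 side and 3 on the PERK side. All 31 were found among the 17254 genes in the deposited tables, and all 31 were among the 12813 genes that passed the filter on low counts.

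RNA sequencing was done on cultured mouse neural progenitor cells in 3 groups of 2 libraries each: control, PQ and NAC. All cultures were grown in N2 medium with EGF and bFGF, and the treated ones were exposed to PQ or to NAC for 48 h. What PQ and NAC stand for, their dose, and the strain or age of the source are not stated in the labels. Whether the libraries within each group represent independent cultures is not stated either, so the p-values speak only of variation among these 6 libraries, which could be technical.

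When unfolded proteins build up in the ER lumen, the chaperone BiP (encoded by Hspa5) leaves 3 sensors in the ER membrane. ATF6 then moves to the Golgi and is cut into a transcription factor, IRE1 (encoded by Ern1) splices Xbp1 mRNA so that it encodes an active factor, and PERK (encoded by Eif2ak3) phosphorylates eIF2alpha, which slows translation but favours that of ATF4. ATF6 and XBP1 act on chaperone and degradation genes, in part through an ER stress response element (ERSE) in promoters, while ATF4 acts on amino acid and stress genes and can also be switched on by kinases outside the ER.

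Promoter windows of these genes were searched for exact matches to that element. A gene without a match, or without a window, is not shown to lack it. RefSeq promoter windows (build GRCm38.p6, 250 bases before to 50 bases after the start of the gene) were matched for 26 of the 31 genes. The ERSE, written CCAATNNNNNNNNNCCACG and searched on both strands, was found in 8 of those 26 windows (30.8%) and in 39 of all 32851 promoter windows (0.119%). The 8 genes were Calr, Canx, Creld2, Dnajc3, Hsp90b1, Hspa5, Pdia6 and Syvn1, and Hsp90b1 had 2 matches. A shorter form, ERSE-II (ATTGGNCCACG, both strands), was found in 2 of the 26 windows, those of Dnajb11 and Herpud1, and in 12 of all windows (0.0365%). Because the genes were chosen for known roles in this response, their shares are not independent of that choice. No test was made on them. The 4 windows below belong to genes that passed the test in at least 1 comparison. They are written 5′ to 3′ on the strand of the gene, with each matched element in capitals, and 20 bases on either side. The Hspa5 window is chr2:34772005-34772063 on the plus strand, that of Calr chr8:84847055-84847113 on the minus strand, that of Dnajc3 chr14:118937807-118937865 on the plus strand and that of Herpud1 chr8:94386297-94386407 on the plus strand.
Hspa5: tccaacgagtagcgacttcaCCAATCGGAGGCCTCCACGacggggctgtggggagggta
Calr: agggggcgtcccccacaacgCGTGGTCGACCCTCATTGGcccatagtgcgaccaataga
Dnajc3: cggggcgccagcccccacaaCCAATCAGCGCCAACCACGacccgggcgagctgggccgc
Herpud1: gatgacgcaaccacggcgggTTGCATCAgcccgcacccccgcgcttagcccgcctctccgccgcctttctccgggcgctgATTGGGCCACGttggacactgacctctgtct
The Hspa5 element lies 65 to 47 bases before the start of the gene, and that of Dnajc3 105 to 87 bases before it. The Calr element reads on the opposite strand, 162 to 144 bases before the start. Herpud1 differs from the other 3 in its window. It carries the ERSE-II 52 to 42 bases before the start and, farther out at 112 to 105 bases, the C/EBP-ATF element TTGCATCA, a sequence of the kind that ATF4 with C/EBP partners can bind. TTGCATCA was found in no other promoter of the 26 and in 294 of all windows (0.895%). The 6-base core ACGTGG (both strands), part of the XBP1 element, was in 6 of the 26 windows and in 2729 of all windows (8.31%); in Herpud1 it overlaps the end of the ERSE-II. A match describes letters in a window and is not evidence of binding.

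In control cultures the 31 genes spanned a wide range of levels per transcript length, given as the deposited FPKM (fragments scaled for transcript length and sequencing depth). Hsp90b1, which encodes the chaperone GRP94, was the most abundant, at 501 and 522 FPKM in the 2 control libraries. Calr and Canx, which encode the lectin chaperones calreticulin and calnexin, had 412 and 387 FPKM and 205 and 206 FPKM. Pdia3, the disulfide isomerase that works with them, stood at 277 and 308 FPKM, and Hspa5 at 261 and 251 FPKM. These 5 genes kept the same order in both control libraries, without overlap between neighbours. The sensors were far lower. Xbp1 had 25.4 and 23.1 FPKM, Eif2ak3 14.9 and 11.9, and Atf6 8.22 and 10.6. Ern1 was the lowest of the 31 genes, at 2.99 and 2.94 FPKM. Lower in the order, neighbours often overlapped, as did Sel1l (27.4 and 30.1 FPKM) and Ssr1 (28.3 and 28.8 FPKM), so that their order is not resolved.

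**Figure D1:**
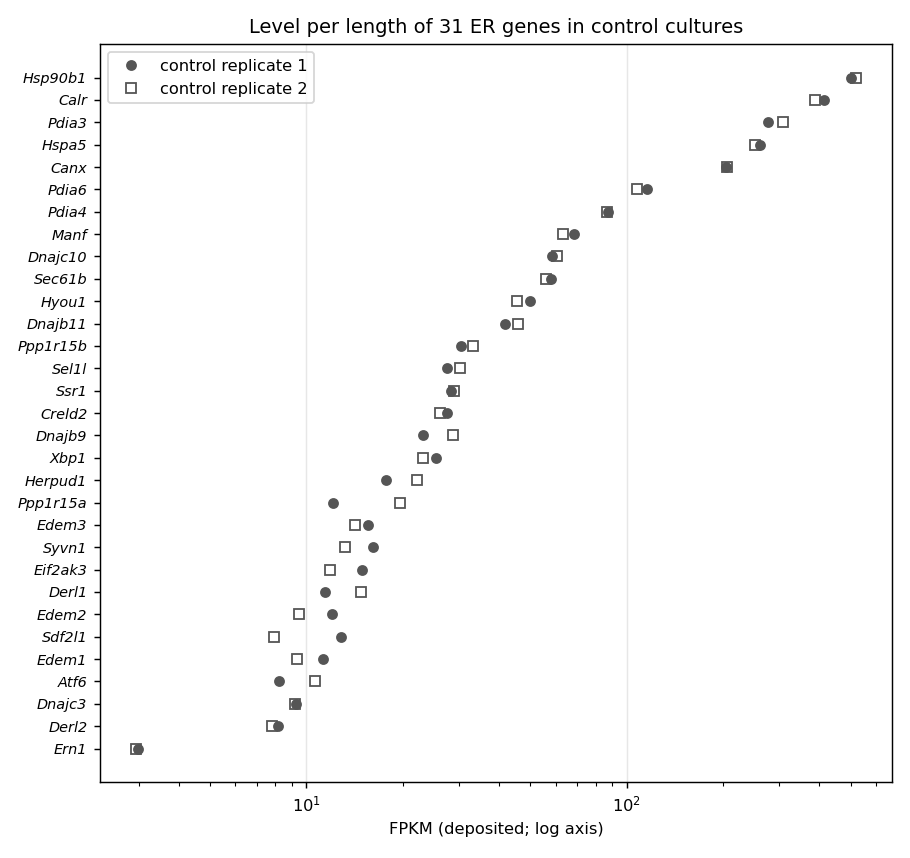
Deposited FPKM of the 31 ER genes in control replicate 1 (circles) and control replicate 2 (squares), on a log axis, ordered by the mean of both. Hsp90b1, Calr, Pdia3, Hspa5 and Canx lie above 200 FPKM in both libraries, and Ern1 lies lowest at about 3 FPKM.

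The libraries held 9680436 to 10698241 expected counts each, and libraries of a group differed from each other by less than libraries of different groups (chi-square per degree of freedom over genes of 4.11 to 6.92 against 14.97 to 37.9). The neural progenitor label was checked against markers: Sox2, Nes, Vim, Fabp7 and Olig2 were abundant, while Hes5 and Prom1 were near 0. The summed level of 15 neural stem cell markers was 7456 to 7685 CPM (counts scaled to sequencing depth) in control, 8100.0 to 8131 in PQ and 6090.0 to 6131 in NAC libraries. The NAC sum was lower mostly through Vim, with group means of 4104, 4744 and 2512 CPM in control, PQ and NAC, while Slc1a3 rose with NAC. Astrocyte markers (9 genes) summed to 736 to 781, 870 to 915 and 778 to 801 CPM; with NAC 4 of them rose (Aldoc, Aqp4, Gfap and Slc1a2) and Gja1 fell, and with PQ Aldh1l1 and Gja1 rose and Fgfr3 fell (edgeR). Neuronal markers (10 genes, Rbfox3 and Slc17a6 at 0 throughout) summed to 284 to 285, 311 to 320 and 383 to 399 CPM, although Tubb3 fell with both treatments and Nefl fell with NAC. Oligodendrocyte markers (9 genes, Mog and Mag at 0) summed to 202 to 225, 231 to 234 and 223 to 260 CPM. Endothelial markers (8 genes, Cldn5 at 0) summed to 80.8 to 86.4, 108 to 123 and 87.4 to 109 CPM. Only 1 of the 8, Flt1, passed the filter on low counts, and it rose with PQ. Microglial and blood markers (11 genes, of which 3 passed that filter, with Tyrobp and Hbb-bs at 0) were low but higher in both treated groups without overlap. They summed to 6.57 to 6.80 CPM in control, 10.74 to 11.4 in PQ and 11.1 to 13.0 in NAC libraries. Those of fibroblasts and pericytes (9 genes) had a lower sum in both treated groups without overlap, at 30.1 to 31.5, 19.5 to 24.7 and 25.8 to 29.1 CPM. Of the 5 that were tested, however, 4 had estimates above 0 with each treatment. Acta2 rose with both, Dcn rose with PQ and Col3a1 fell with PQ. The part of these marker levels in the results that follow was not tested. In bulk libraries fewer cells of a type and less RNA per cell cannot be told apart.

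Most of the 31 ER genes did not pass the test in either treated group. Levels below are CPM scaled by TMM factors, log2 fold changes (with standard errors, SE) come from edgeR's quasi-likelihood fit over all 6 libraries, and a gene is said to have risen or fallen where edgeR's adjusted p was under 0.05. With PQ 4 of 31 genes passed (12.9%), against 17.9% of all genes tested. Of these, 2 were higher (9.07% of all genes were) and 2 lower (8.8% of all genes). With NAC 6 of 31 passed (19.4%), against 17.9% of all genes. They were 4 higher (8.65% of all genes) and 2 lower (9.26% of all genes). Neither share of called ER genes was well above that of all genes. Leaving out single libraries changed these counts: with PQ 2 genes passed without PQ replicate 1 and 1 without PQ replicate 2, and with NAC 1 passed without NAC replicate 1 and 3 without control replicate 2. The median log2 fold change of the 31 genes was 0.06 with PQ and 0.08 with NAC, beside -0.00 for all genes tested in each. Libraries of the 2 groups did not overlap for 58.1% of the ER genes in either comparison, beside 57.2% of all genes with PQ and 56.6% with NAC. Between PQ and NAC they did not overlap for 35.5% of the ER genes, beside 66.0% of all genes. The summed level of the 31 genes was 7100 and 7238 CPM in control, 8039 and 7612 in PQ and 7984 and 7221 in NAC libraries. Control and NAC libraries overlapped in this sum, and both PQ libraries lay above both controls. PQ and NAC were compared with the same 2 control libraries, so a control library that deviates moves both comparisons alike.

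Library-size scaling without TMM factors moved the split of calls over all genes. Under TMM scaling 1108 genes were higher and 1186 lower with NAC, and under library size alone 1392 were higher and 986 lower. For PQ the split went from 1162 higher and 1127 lower to 1332 and 965. The median log2 fold change of all genes shifted to 0.04 with NAC and 0.03 with PQ under that scaling, and ER genes higher then numbered 5 with NAC and 4 with PQ, with 1 lower in each.

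**Figure D2:**
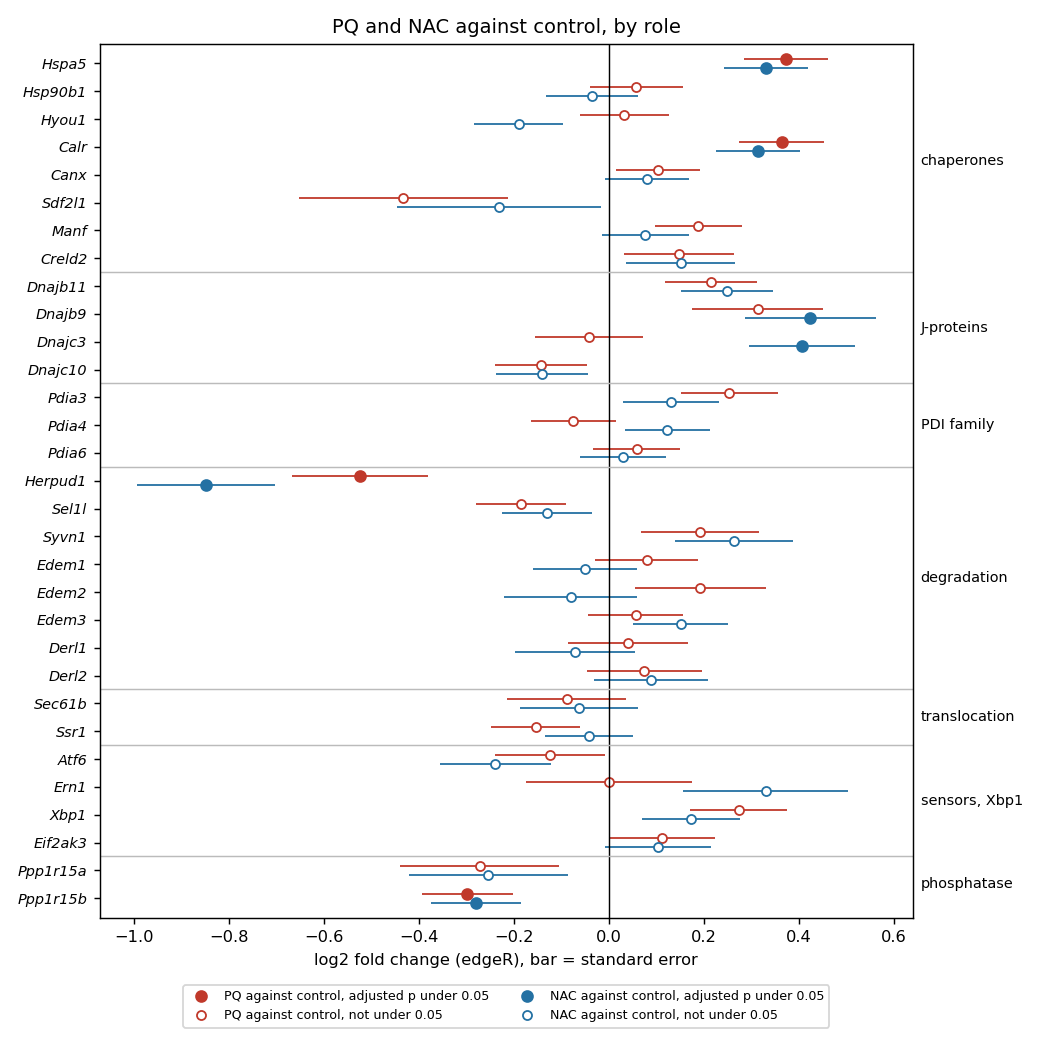
Log2 fold changes of the 31 ER genes, ordered by role, for PQ against control (red) and NAC against control (blue); bars are standard errors from edgeR and filled symbols have an adjusted p under 0.05. Filled symbols stand to the right of 0 for Hspa5, Calr, Dnajb9 and Dnajc3 and to the left for Herpud1 and Ppp1r15b.

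Among the 8 chaperone genes, Hspa5 and Calr rose with both treatments and none fell. Hspa5 (Entrez Gene 14828, chr2:34772090-34776529 in GRCm38.p6) encodes BiP, the chief HSP70 chaperone of the ER lumen and the gene most used to read out the ATF6 arm. Its level was 674 and 654 CPM in control, 896 and 824 in PQ and 864 and 807 in NAC libraries. All 4 treated libraries lay above both control libraries. The log2 fold change was 0.37 (SE 0.09) with PQ, 1.29-fold, with an edgeR adjusted p of 0.00677. With NAC it was 0.33 (SE 0.09), 1.26-fold, with an edgeR adjusted p of 0.0134. The PQ call was lost without PQ replicate 1 (adjusted p = 0.0878), and the NAC call without control replicate 2 (0.0586) or NAC replicate 1 (0.13). Over the 15 alternatives run the adjusted p ranged from 0.000595 to 0.0878 with PQ and from 0.00269 to 0.13 with NAC, and the change stayed positive in each.

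Calr (Entrez Gene 12317, chr8:84842088-84846931) encodes calreticulin, a calcium-binding lectin that holds newly glycosylated proteins. It had 810.0 and 768 CPM in control, 999.7 and 1031 in PQ and 1031 and 932 in NAC libraries. Treated and control libraries did not overlap. Calr rose by 0.36 (SE 0.09) on the log2 scale with PQ (edgeR adjusted p = 0.00805) and by 0.31 (SE 0.09) with NAC (edgeR adjusted p = 0.0187), 1.29-fold and 1.24-fold. Omitting control replicate 2 ended the call in both comparisons (adjusted p = 0.0513 with PQ and 0.0932 with NAC), as did omitting PQ replicate 2 (0.0919) for PQ and NAC replicate 1 (0.197) for NAC, and the adjusted p over all 15 alternatives ran from 0.0007 to 0.0919 with PQ and from 0.00425 to 0.197 with NAC.

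The other 6 chaperone genes did not pass in either comparison, although they are commonly grouped with Hspa5. Hsp90b1, the most abundant of all, had a log2 fold change of 0.06 (SE 0.10) with PQ and -0.03 (SE 0.10) with NAC, and Canx had 0.10 (SE 0.09) and 0.08 (SE 0.09). Hyou1, an HSP110-type exchange factor for BiP, had 0.03 (SE 0.09) and -0.19 (SE 0.09). Manf and Creld2, secreted proteins of the ATF6 side, lay between 0.08 and 0.19. Sdf2l1, a partner of ER J-proteins, had the lowest level of the group and the widest spread: 14.4 and 8.93 CPM in control, 8.12 and 9.12 in PQ and 8.53 and 11.4 in NAC libraries. Its estimate with PQ was -0.43 (SE 0.22; edgeR adjusted p = 0.194), and it passed only without control replicate 2 (-0.73; 0.0231). Across the 31 genes the SE lay between 0.09 and 0.22. The smallest change that passed was 0.28 on the log2 scale, in size, and uncalled estimates reached -0.43, so a gene without a call is not shown to be unaffected.

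The 4 J-proteins, which bring clients to BiP and stimulate its ATPase, included 2 that rose with NAC and none that rose with PQ; a direct test between the treatments passed for 1 of them. Dnajc3 (Entrez Gene 100037258, chr14:118937932-118981702) encodes p58IPK, a co-chaperone also described as an inhibitor of PERK. Its level was 49.4 and 49.5 CPM in control, 51.1 and 45.0 in PQ, and 70.4 and 60.6 in NAC libraries. Both NAC libraries lay above the other 4, and PQ and control libraries overlapped. It rose by 0.41 (SE 0.11) on the log2 scale with NAC, 1.33-fold (edgeR adjusted p = 0.0154), and had -0.04 (SE 0.11) with PQ (edgeR adjusted p = 0.847). Compared directly, Dnajc3 was lower in PQ than in NAC by a log2 difference of -0.45 (SE 0.11), 1.36-fold (edgeR adjusted p = 0.00489). It was the 1 ER gene of 31 (3.23%) to pass in PQ against NAC, a comparison in which 30.6% of all genes passed, 15.5% higher and 15.1% lower in PQ. The NAC call was lost without NAC replicate 1 (adjusted p = 0.199), and the direct one without NAC replicate 1 (0.0947) or PQ replicate 2 (0.0898). Over the alternatives the adjusted p ran from 0.00483 to 0.199 for the first and from 0.000893 to 0.0947 for the direct comparison.

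Dnajb9 (Entrez Gene 27362, chr12:44205897-44210068) encodes ERdj4, a BiP partner that helps dispose of misfolded proteins and restrains IRE1. It had 43.8 and 54.6 CPM in control, 65.1 and 57.2 in PQ and 75.5 and 56.3 in NAC libraries. Both treated groups lay above control, by little in PQ replicate 2 and NAC replicate 2. It rose by 0.42 (SE 0.14) on the log2 scale with NAC, 1.34-fold (edgeR adjusted p = 0.0394), and the estimate with PQ was 0.31 (SE 0.14; edgeR adjusted p = 0.131). PQ and NAC did not differ by the test (-0.11, SE 0.14; edgeR adjusted p = 0.577). The NAC call did not survive the omission of control replicate 1 (adjusted p = 0.211) or NAC replicate 1 (0.481, with the log2 fold change down to 0.20), with DESeq2 (0.0696) and with limma on FPKM (0.0605 and 0.0627), within a range of 0.00277 to 0.481. Conversely Dnajb9 passed with PQ without control replicate 2 (0.48; 0.0318) or without the filter on low counts (0.0471). Dnajb11, which encodes ERdj3, had 0.22 (SE 0.10; edgeR adjusted p = 0.138) and 0.25 (SE 0.10; 0.0844), and Dnajc10, a J-protein with disulfide reductase domains, had -0.14 (SE 0.10) in each comparison. The NAC estimate of Dnajb11 passed under library-size scaling alone (0.0384).

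None of the 3 disulfide isomerases passed. Pdia3 came nearest with PQ, at 0.25 (SE 0.10; edgeR adjusted p = 0.0933), and passed under library-size scaling (0.0499) and without the filter (0.0328). With NAC it had 0.13 (SE 0.10). Pdia4 had -0.07 (SE 0.09) with PQ and 0.12 (SE 0.09) with NAC, and Pdia6 had 0.06 and 0.03 (SE 0.09 each). The 2 translocation genes, Sec61b of the protein-conducting channel and Ssr1 of the translocon-associated complex, lay between -0.15 and -0.04 with no call.

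In ER-associated degradation, which pulls misfolded proteins back to the cytosol for the proteasome, 1 of 8 genes fell and none rose. Herpud1 (Entrez Gene 64209, chr8:94386429-94395371) encodes HERP, a membrane scaffold of the HRD1 ubiquitin ligase that is a target of both ATF6 and ATF4. It had 33.7 and 42.3 CPM in control, 28.2 and 24.6 in PQ and 23.0 and 19.1 in NAC libraries. The 3 groups did not overlap: control was highest, PQ between and NAC lowest. With NAC it fell by 0.85 (SE 0.15) on the log2 scale, 1.8-fold, the largest change among the 31 genes in any of the 3 comparisons (edgeR adjusted p = 0.000404). That call held in all 15 alternatives, with log2 fold changes from -1.001 to -0.669 and a highest adjusted p of 0.0108. With PQ it fell by 0.52 (SE 0.14), 1.44-fold (edgeR adjusted p = 0.0162). This call was lost on omitting control replicate 2 (-0.35; adjusted p = 0.156) or PQ replicate 2 (-0.43; 0.189), in a range of 0.00179 to 0.189. PQ against NAC gave 0.32 (SE 0.15; edgeR adjusted p = 0.113), so the difference between the treatments did not pass.

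The other 7 degradation genes had no call. Syvn1, which encodes the ligase HRD1, had 0.19 (SE 0.12) with PQ and 0.26 (SE 0.12) with NAC. The NAC estimate passed only without control replicate 1 (0.43; adjusted p = 0.028). Sel1l, its partner, had -0.18 (SE 0.09) and -0.13 (SE 0.09), with both treated groups below control without overlap in CPM. With NAC the gap was narrow, at 176.6 CPM in control replicate 1 and 176.3 in NAC replicate 1. In FPKM NAC replicate 1 lay above control replicate 1 (27.98 and 27.39). Of the mannosidase-related genes that mark glycoproteins for disposal, Edem1 had 0.08 and -0.05 (SE 0.11 each), Edem2 0.19 and -0.08 (SE 0.14 each) and Edem3 0.06 and 0.15 (SE 0.10 each). The derlin genes Derl1 and Derl2 lay between -0.07 and 0.09. None of the 7 passed in PQ against NAC either.

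The transcripts of the sensors themselves did not pass in any comparison. Xbp1 had 58.3 and 53.4 CPM in control, 67.0 and 68.0 in PQ and 61.0 and 65.1 in NAC libraries. Both treated groups lay above control, with log2 fold changes of 0.27 (SE 0.10; edgeR adjusted p = 0.073) with PQ and 0.17 (SE 0.10; 0.269) with NAC; the first passed under library-size scaling alone (0.0496). Atf6 had 63.0 and 82.0 CPM in control, 68.5 and 64.5 in PQ and 61.3 and 61.5 in NAC libraries. Control replicate 2 stood above the other 5 libraries. The estimates were -0.12 (SE 0.12; edgeR adjusted p = 0.519) with PQ and -0.24 (SE 0.12; 0.176) with NAC, and the second reached -0.41 with an adjusted p of 0.0146 without control replicate 1.

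Ern1 was at 12.1 CPM in both control libraries, 10.72 and 13.4 in PQ and 13.3 and 17.1 in NAC libraries. NAC lay above control and overlapped PQ. Its log2 fold change was 0.00 (SE 0.17) with PQ and 0.33 (SE 0.17) with NAC (edgeR adjusted p = 0.208). Eif2ak3 had 68.8 and 55.3 CPM in control, 69.0 and 65.3 in PQ and 65.7 and 67.6 in NAC libraries. These overlapped, and the estimates were 0.11 and 0.10 (SE 0.11 each; edgeR adjusted p = 0.543 and 0.581).

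Gene counts do not show the splicing of Xbp1 or the cutting of ATF6, which are the activating steps. The deposited length column gives a weak view of the Xbp1 forms, because for a gene with several listed transcripts it varies with their mix (it varied between libraries for 6 of the 31 genes, the 6 with several transcripts). The spliced Xbp1 form is the shorter of the 2 listed. The length was 2261.8 and 2261.54 bases in control, 2264.0 and 2264.0 in PQ, and 2261.42 and 2264.0 in NAC libraries. Both PQ libraries and NAC replicate 2 stood at the highest value, and NAC replicate 1 was below both controls. No share of spliced transcript was computed from these lengths and no test was made.

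**Figure D3:**
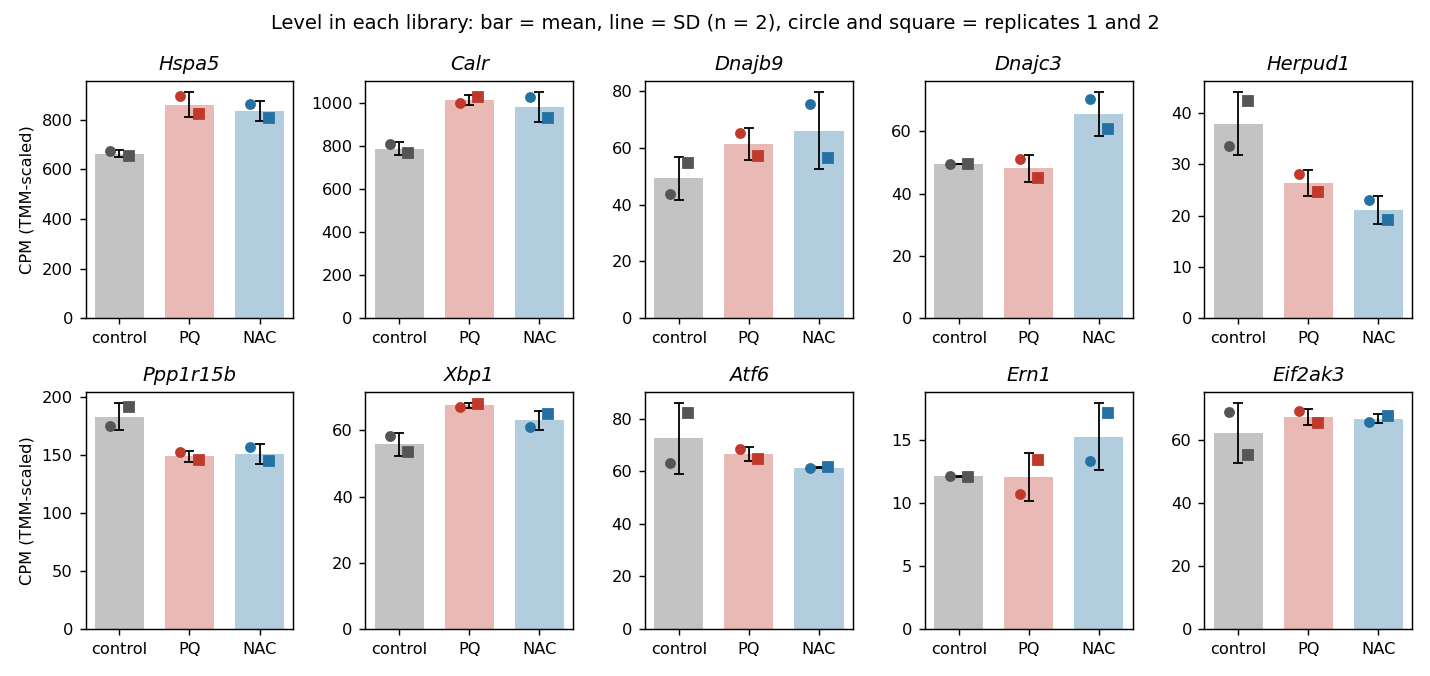
TMM-scaled CPM in each library (circle for replicate 1, square for replicate 2) with the group mean as a bar from 0 and the SD of 2 libraries as a line, for the 6 ER genes that passed in at least 1 comparison and for Xbp1, Atf6, Ern1 and Eif2ak3. Herpud1 steps down from control through PQ to NAC without overlap, Dnajc3 is raised in NAC alone among these libraries, and the 2 control libraries of Atf6 lie far apart (63.0 and 82.0 CPM).

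The PERK side also holds the 2 regulatory subunits that guide protein phosphatase 1 to eIF2alpha. Ppp1r15b (Entrez Gene 108954, chr1:133131166-133139800) encodes CReP, the constitutive subunit. It had 174 and 191 CPM in control, 152 and 145 in PQ and 157 and 144 in NAC libraries. All treated libraries lay below both controls. It fell by 0.30 (SE 0.10) on the log2 scale with PQ, 1.23-fold (edgeR adjusted p = 0.0373), and by 0.28 (SE 0.10) with NAC, 1.21-fold (edgeR adjusted p = 0.0498). Both calls sat close to the threshold. The PQ call was lost in 6 of 15 alternatives: without control replicate 2 (adjusted p = 0.196), PQ replicate 1 (0.114) or PQ replicate 2 (0.262), under library-size scaling (0.0545) and with limma on FPKM (0.0887 and 0.0891). The NAC call was lost in 11 of 15, among them without control replicate 2 (0.246), PQ replicate 1 (0.0857), PQ replicate 2 (0.0802), NAC replicate 1 (0.0919) or NAC replicate 2 (0.286, the highest). The lowest adjusted p over the alternatives was 0.0235 with PQ and 0.0336 with NAC. Of the exonic bases of Ppp1r15b 11.4% are shared with a gene on the opposite strand, and it is not stated in the sources used here if reads were counted by strand.

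Ppp1r15a encodes GADD34, the inducible subunit and a target of ATF4. It had 28.8 and 47.1 CPM in control, 31.01 and 31.7 in PQ and 29.9 and 33.7 in NAC libraries. Control replicate 2 stood above all other libraries, while control replicate 1 was the lowest of the 6. The estimates were -0.27 (SE 0.17; edgeR adjusted p = 0.298) with PQ and -0.25 (SE 0.17; 0.331) with NAC. Without control replicate 1 they were -0.59 and -0.56, so this gene's result rested on which control library was kept. Over the 15 alternatives the highest estimates were 0.13 with PQ and 0.15 with NAC, so the direction was not settled either.

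By UPR side, the ATF6 side had 2 genes higher and 1 lower of 14 in each comparison with control, with a median log2 fold change of 0.06 with PQ and 0.05 with NAC. The XBP1 side had no call of 14 with PQ (median 0.07) and 2 higher with NAC (median 0.12). The PERK side had 1 of 3 lower in each, with medians of -0.27 and -0.25. These medians are the estimates of Ppp1r15a, which had no call, and Eif2ak3 had estimates of 0.11 and 0.10. The genes whose promoter window held the ERSE had medians of 0.13 with PQ and 0.21 with NAC over 8 genes, of which 2 and 3 rose and none fell; 7 of the 8 estimates were above 0 in each. The 18 genes whose window lacked it had medians of 0.03 and 0.02, with 10 and 9 estimates above 0. Among them none rose and 1 fell with PQ, and 1 rose and 1 fell with NAC. The gene that fell in each was Herpud1. Its window and that of Dnajb11, also among the 18, held the ERSE-II. Of all genes 9.07% rose and 8.8% fell with PQ, and 8.65% rose and 9.26% fell with NAC. Estimates were above 0 for 49.6% of all genes with PQ and 49.7% with NAC. Whether these groups of genes differ was not tested, and their counts rest on the calls given above, with the same dependence on single libraries.

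The output of ATF4, from a list of 14 genes, stood apart from the ER genes in size. With PQ 1 of 14 rose and 9 fell (median -0.87), and with NAC none rose and 12 fell (median -1.33), beside a median of -0.00 for all genes. Of all genes 9.07% rose and 8.8% fell with PQ, and 8.65% rose and 9.26% fell with NAC. Atf4 itself had 335 and 492 CPM in control, 221 and 227 in PQ and 175 and 188 in NAC libraries. It fell by 0.89 (SE 0.13) on the log2 scale with PQ (edgeR adjusted p = 0.000152) and by 1.19 (SE 0.13) with NAC (edgeR adjusted p = 4.01e-06). Chac1, a glutathione-degrading enzyme, had 32.4 and 54.8 CPM in control, 7.18 and 7.79 in PQ and 3.34 and 4.06 in NAC libraries, with log2 fold changes of -2.54 (SE 0.21) and -3.56 (SE 0.24). For Asns, asparagine synthetase, they were -1.38 (SE 0.16) and -2.17 (SE 0.17). The 3 genes had their groups in the order control, PQ, NAC without overlap, which not all genes of the list did. The share of all genes in this order was not counted. In PQ against NAC 7 of the 14 were higher in PQ and none lower (median 0.75), where 15.5% of all genes were higher and 15.1% lower. Control replicate 2 was above control replicate 1 for 12 of the 14 genes (median log2 ratio 0.65), against 15 of the 31 ER genes (median -0.01). Omitting control replicate 2 left 7 ATF4 output genes lower with PQ and 10 with NAC, and omitting PQ replicate 2 left 6 lower with PQ.

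**Figure D4:**
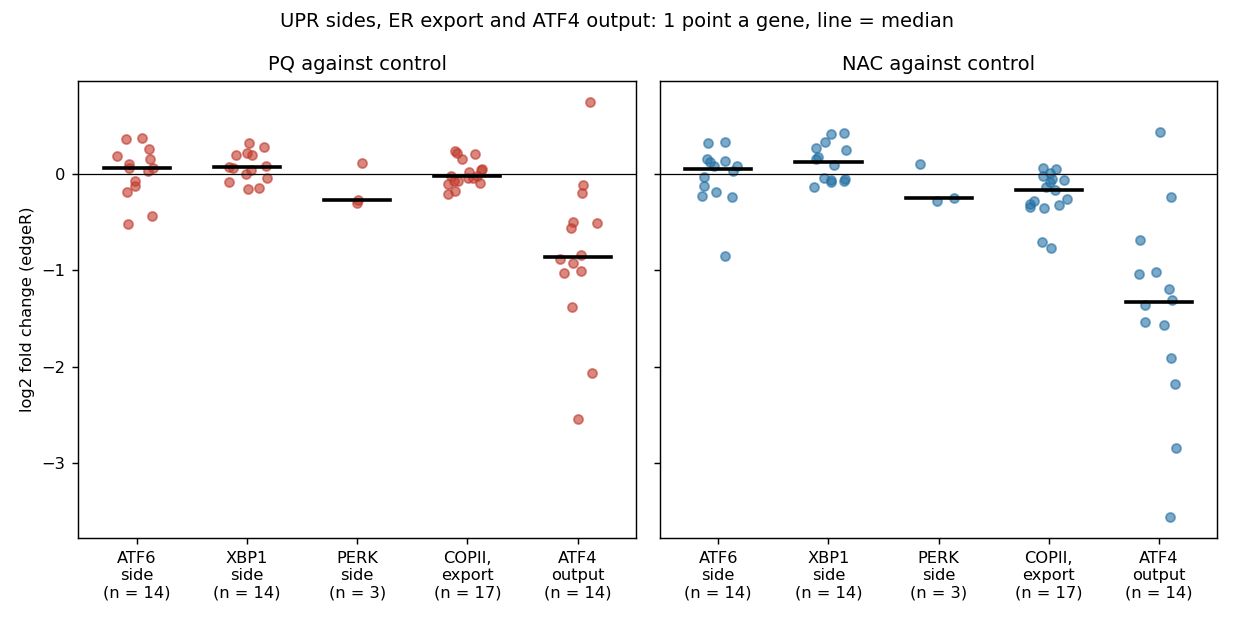
Log2 fold changes against control (edgeR), 1 point a gene, for the 3 UPR sides of the 31 ER genes, the COPII and ER export list and the ATF4 output list, with PQ at left and NAC at right; the line is the median. The ATF6 and XBP1 sides have medians between 0.05 and 0.12, and the PERK side -0.27 and -0.25, the estimates of Ppp1r15a among 3 genes. The export list has -0.03 and -0.17, and the ATF4 output list -0.87 and -1.33.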

How the data were processed

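RNA sequencing libraries of mouse neural progenitor cultures (control, PQ, NAC; 2 each) were analysed from the authors' tables, which hold an expected count, an FPKM value and a length for each gene, per the file headers. Tools listed in the submitters' processing notes, with no role given, are RSEM, HISAT2 2.0.4 and Bowtie2 2.2.5, and the build is mm10; strand use in counting is not given in the sources used here. The 31 genes and the other gene lists were chosen with earlier results of these data known. The deposited expected counts were rounded, and genes not listed in a table were set to 0. Of 17254 gene identifiers, 17199 matched a symbol in the annotation tables and 55 did not. Low counts were removed with filterByExpr (at least 10 counts, total at least 15), and libraries were scaled by TMM and tested with edgeR 4.0.16 (limma 3.58.1, R 4.3.3), with 1 mean per group over 6 libraries and 3 residual degrees of freedom. Benjamini-Hochberg adjustment ran over all 12813 tested genes in each comparison (threshold 0.05). The SE was taken as the size of the log2 fold change over the root of its F statistic. The 15 alternatives changed scaling, filter, dispersion, libraries or tool (DESeq2 1.42.0, or limma on log2 of the deposited FPKM plus 1 or plus 0.1). The procedure was tested on simulated counts with changes of 1.5-fold, 2-fold and 4-fold. Over the 3 comparisons 55.2 to 70.1% of the 1.5-fold changes were recovered, and 5.7 to 6.2% of calls were false. All calls of ER genes but the fall of Herpud1 with NAC were smaller than 1.5-fold, and such sizes were not simulated. Values per library are given for ER genes that passed in a comparison, for the sensors and Xbp1, and from each other list up to 4 genes with the smallest p may be named; per-library values of Ppp1r15a and Sdf2l1 and the naming of Atf4, and of ER genes beyond ranges, were chosen after their values were seen. Promoter windows are RefSeq's (GRCm38.p6). Python 3.11.15, pandas 2.3.3 and matplotlib 3.10.9 were used.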

Additional observations from a re-analysis of the deposited data

How the results depend on the processing

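No paired analysis was made because the labels give library numbers that no 2 groups share (8 and 11 for control, 9 and 12 for PQ, 10 and 13 for NAC), and replicates were numbered by accession order. The labels do not say whether 8 to 10 and 11 to 13 are separate runs or batches, so no block was fitted on them, and whether such a block would change a call was not tested. Leaving out 1 library at a time, the genes called over the whole table numbered 829 to 2181 for PQ against control (2289 with all libraries), 1338 to 2157 for NAC against control (2294) and 2427 to 4442 for PQ against NAC (3926). ER genes higher then numbered 1 to 2 with PQ and 0 to 4 with NAC, and ER genes lower 0 to 3 with PQ, 1 to 4 with NAC and 0 to 1 in PQ against NAC. With PQ, ER genes higher numbered 4 under library-size scaling and 4 without the filter, and ER genes lower numbered 1 under library-size scaling and 1 with limma on FPKM at either pseudocount. With NAC, ER genes lower numbered 1 with RLE size factors, library-size scaling, only the 2 groups compared, DESeq2 and limma on FPKM at either pseudocount. The cause of these shifts was not tested. No called ER gene changed direction in the 15 alternatives; the uncalled estimates changed sign 16, 20 and 28 times, over 10, 11 and 17 genes in the comparisons of PQ with control, NAC with control and PQ with NAC. Taking each ER gene under each alternative, the side of the threshold was kept in 447 results and changed in 18 for PQ, kept in 440 and changed in 25 for NAC, and kept in 463 and changed in 2 for PQ against NAC. An SE of 0.09 to 0.22 with 2 libraries a group limits what could be called.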

Other observations

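ER export buds cargo from the ER in COPII coats, and KDEL receptors return escaped chaperones. Of 17 listed genes of this kind, 6 fell with NAC and none rose (median log2 fold change -0.17; edgeR), where 9.26% of all genes fell and 8.65% rose. With PQ none passed (median -0.03), where 17.9% of all genes did, and 3 of the 17 passed in the direct comparison of PQ with NAC, where 30.6% of all genes did. Sec24d, a cargo-binding coat subunit, had 86.3 and 77.9 CPM in control, 81.9 and 74.0 in PQ and 46.8 and 49.8 in NAC libraries, and fell by 0.77 (SE 0.11) with NAC (edgeR adjusted p = 4.39e-05). Kdelr3, a receptor that returns chaperones with a KDEL-type tail, had 50.2 and 42.2, 48.6 and 45.1, and 27.6 and 28.9 CPM, and fell by 0.71 (SE 0.12; edgeR adjusted p = 0.000371). For both genes the NAC libraries lay below the other 4, and both were higher in PQ than in NAC by the direct test, with Sec31a the other gene of the list to pass there (not without PQ replicate 1, PQ replicate 2 or NAC replicate 2). The 6 calls numbered 2 without NAC replicate 1, 3 without NAC replicate 2 and 3 without control replicate 1, and Sec24d and Kdelr3 were called in each of those fits.

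Ero1a and P4hb, of the disulfide oxidation list, fell with NAC and had no call with PQ. Ero1a, the oxidase that recharges disulfide isomerases, had 2953 and 3150.3 CPM in control, 3044 and 2198 in PQ and 1030.2 and 1145 in NAC libraries, and fell by 1.49 (SE 0.12) with NAC (edgeR adjusted p = 1.55e-07). P4hb, the founding disulfide isomerase, had 1029 and 991 CPM in control, 1019 and 883 in PQ and 721 and 754 in NAC libraries, and fell by 0.45 (SE 0.09; edgeR adjusted p = 0.00182). The 3 disulfide isomerases among the 31 ER genes had no call. With NAC 8.65% of all genes rose and 9.26% fell, and with PQ 9.07% rose and 8.8% fell. Of the 14 genes of that list 1 rose and 2 fell with NAC, and 2 fell with PQ (none without PQ replicate 2). The gene that rose, Sumf1, did not pass in any of the 6 fits that left out a library.

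Among the 3 eIF2alpha kinases other than PERK, Eif2ak2 rose with PQ, Eif2ak1 rose with both treatments, and Eif2ak4, the kinase GCN2 that senses uncharged tRNA, had no call (0.09, SE 0.11, edgeR adjusted p = 0.655 with PQ; -0.16, SE 0.11, 0.37 with NAC). Eif2ak2, the kinase PKR that double-stranded RNA activates, had 92.6 and 97.7 CPM in control, 132 and 147 in PQ and 88.1 and 82.7 in NAC libraries. It rose by 0.55 (SE 0.10) with PQ (edgeR adjusted p = 0.000714), and both PQ libraries lay above the other 4; with NAC it had -0.16 (SE 0.10; edgeR adjusted p = 0.315). Eif2ak1, the heme-regulated kinase HRI, had 47.5 and 44.3, 62.1 and 57.7, and 65.1 and 58.6 CPM. It rose by 0.38 (SE 0.11; edgeR adjusted p = 0.0192) with PQ and 0.43 (SE 0.11; edgeR adjusted p = 0.00846) with NAC. The PQ call of Eif2ak1 was lost without control replicate 2 (0.0912), PQ replicate 1 (0.141) or PQ replicate 2 (0.0698), and the NAC call without NAC replicate 1 (0.111). Transcript levels do not measure kinase activity. Of the 27 genes of other UPR signalling 3 rose and 1 fell in each comparison with control. Of 28 translocon, signal peptidase and oligosaccharyltransferase genes 1 rose and 2 fell with PQ, and none rose and 3 fell with NAC. Of 14 glycan trimming and lectin genes 2 fell with PQ and 1 with NAC. Of 20 tested genes of other ER-associated degradation 3 rose with PQ and 1 with NAC. These counts stand beside 17.9% of all genes called with PQ and 17.9% with NAC, and none of the 4 lists had a higher share in either. Without PQ replicate 2 the calls with PQ in these 4 lists numbered 1, 0, 0 and 0, and without NAC replicate 1 those with NAC numbered 1, 2, 1 and 0.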
